A study of Mus musculus with 1 sample.

Results

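The 10 genes described here, F13a1, Fn1, Tgfbi, Ccr2, Ly6c2, Ly86, Trem2, Lyz2, Ctss and Lgals3, encode products that monocytes and macrophages secrete, display or store. They were taken by gene symbol from the 32285 genes of the deposited count matrix, and each symbol matched exactly 1 row. Monocytes arise in bone marrow from progenitors that need the transcription factor IRF8 and carry the receptor for macrophage colony-stimulating factor, encoded by Csf1r. On the way they acquire matrix and clotting proteins, receptors that direct them to inflamed tissue, and the enzymes of a phagocyte, while dendritic cells and neutrophils branch off from related progenitors. The questions were in which order these genes came up along Csf1r-positive or Irf8-positive cells, and at which level they stood in cells gated by neutrophil and dendritic markers.

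The study asks what loss of BRD9, a bromodomain subunit of the non-canonical BAF chromatin remodelling complex, does to blood stem cells. The sample used here is the control: 1 single-cell RNA-seq library, replicate 1 of 1, of lineage-negative cKit+ bone marrow cells from the femora and tibiae of C57BL/6 mice. These carried floxed Brd9 alleles (Brd9fl/fl) with no Cre named in the labels. The alleles should thus be undeleted, which was not checked in these data. The mice had been given 3 doses of 20 mg/kg pIpC, a synthetic double-stranded RNA that induces interferon, 8 weeks before collection. The labels name a CD45.2(+) donor and a CD45.1(+) CD45.2(-) recipient with pIpC 4 weeks after transplantation, while the series' design names primary mice with pIpC 4 weeks after birth and the methods for this library name no transplant, and which applies was not settled. The number of mice behind the library is not given in the sources used here. The lineage antibodies of the methods include CD11b and Gr-1, and Gr-1 antibodies bind products of the Ly6 family, so the sort limited which monocytic cells entered the library.

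Each captured transcript carries a random barcode, the unique molecular identifier (UMI), and duplicates of it are counted 1 time. The study's filter kept 7645 of 8817 distinct barcodes, with 1592 to 49991 UMIs each (median 18696). A level is the sum of a gene's UMIs over a group of cells per 1000000 UMIs of that group (CPM). With 1 library there was no replicate and no test, and every interval is an exact 95% interval (Poisson for levels, conditional binomial for ratios, Clopper-Pearson for shares) that covers counting error only, not differences between mice or libraries. UMIs were read near transcript ends and are not scaled to length, so levels were compared between cells for the same gene. Where genes are set side by side, only their UMI counts or their patterns over cells are meant.

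Cells were called positive with 2 or more UMIs of Csf1r (978 cells) or Irf8 (2713 cells), and 959 of these were positive for both. Of the 2732 cells positive for either gene, the 1824 that met none of 9 lineage gates are called the ordered cells below. Each gate asked for 2 or more UMIs of a core marker and of a further marker, for example Cebpe with Gfi1 or Fcnb for neutrophils, and a cell in several gates (824 cells) was placed in none. This left 449 neutrophil-gated, 321 conventional dendritic-gated, 149 plasmacytoid dendritic-gated, 1161 erythroid-gated, 415 megakaryocyte-gated, 535 basophil or mast-gated and 919 stem-gated cells, with 11 eosinophil-gated and 23 lymphoid-gated cells too few for close reading. The summed level of the 8 neutrophil markers was 458.9 CPM in the neutrophil gate and 55.1 in the ordered cells, that of the 11 conventional dendritic markers 6246 against 89.5, and that of the 11 plasmacytoid markers 1599 against 280.2. Siglech, a defining plasmacytoid receptor and core gene of that gate, was at 68.8 CPM in it and 0.428 in the ordered cells. Of the 149 plasmacytoid dendritic-gated cells, 56 had a Siglech UMI. These are gate genes and the ordered cells met no gate, so the contrasts were set by the selection. Ngp, a late granule gene, had 17 UMIs in the whole neutrophil gate, while S100a8, another granulocyte gene, was at 1588 CPM there. The stage of the neutrophil-gated cells was not tested.

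The upstream sequences of 9 of the 10 genes were found in a RefSeq table on GRCm38.p6, in windows of 250 bases before an annotated start. They were searched on both strands for the letters AGGAAGT, which the myeloid factor PU.1 binds, TTGCNNAA, a form bound by C/EBP factors, GAAA followed after any 2 bases by GAAA, a form bound by interferon regulatory factors such as IRF8, and GGAA followed after any 2 bases by GAAA, a form bound by PU.1 together with IRF8. The PU.1 letters were in 3 of the 9 genes (Lyz2, Ly6c2 and F13a1), while 7.69% of all 32851 windows and 8.80% of the 27025 genes in the table hold them. The interferon regulatory factor letters were in Ctss and Tgfbi (2.98% of windows), the joint letters in no member (2.30% of windows) and the C/EBP letters in no member (9.56% of windows). A match describes the letters and is not shown to be a binding site. The windows below show those matches for genes of early, middle and late onset, 5′ to 3′ on the strand of the gene, with the PU.1 or interferon regulatory factor letters in capitals (in Lyz2 as the reverse complement). Each of these windows held 1 match. The window directly before the annotated F13a1 gene held none, and a second, overlapping Ly6c2 window held 2 PU.1 matches. The Tgfbi window is not printed. F13a1, Ly6c2 and Lyz2 lie on the minus strand and Ctss on the plus strand, and the F13a1 window precedes an alternative start within the annotated gene.
F13a1 chr13:37049214-37049463: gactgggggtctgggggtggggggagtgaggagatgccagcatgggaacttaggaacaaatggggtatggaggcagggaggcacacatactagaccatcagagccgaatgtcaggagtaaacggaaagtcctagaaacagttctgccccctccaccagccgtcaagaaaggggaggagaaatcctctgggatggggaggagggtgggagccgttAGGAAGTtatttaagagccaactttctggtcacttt
Ly6c2 chr15:75111972-75112221: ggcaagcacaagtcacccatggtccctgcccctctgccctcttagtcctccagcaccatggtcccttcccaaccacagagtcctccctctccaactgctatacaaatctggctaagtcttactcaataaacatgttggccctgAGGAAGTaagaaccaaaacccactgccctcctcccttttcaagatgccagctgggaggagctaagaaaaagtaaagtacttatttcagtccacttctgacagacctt
Lyz2 chr10:117282273-117282522: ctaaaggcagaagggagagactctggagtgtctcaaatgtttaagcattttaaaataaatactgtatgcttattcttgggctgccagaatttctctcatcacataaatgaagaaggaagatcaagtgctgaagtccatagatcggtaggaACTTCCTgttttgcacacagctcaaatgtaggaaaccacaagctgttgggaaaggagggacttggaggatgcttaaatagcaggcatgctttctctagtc
Ctss chr3:95526536-95526785: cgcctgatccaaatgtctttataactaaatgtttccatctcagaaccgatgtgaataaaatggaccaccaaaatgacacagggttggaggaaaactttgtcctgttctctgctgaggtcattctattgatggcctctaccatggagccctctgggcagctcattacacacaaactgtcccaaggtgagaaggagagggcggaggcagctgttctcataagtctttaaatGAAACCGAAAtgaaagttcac

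To follow the onset, the 1824 ordered cells were ranked by a score of 14 genes that come up in monocytic cells (such as Klf4, Ms4a6c, Cybb and S100a4) minus 7 progenitor genes (such as Kit, Cd34, Sox4 and Erg), none of them a member, and divided into 10 groups of 182 or 183 cells, called deciles. From decile 1 to 10, Kit went from 126.0 to 3.75 CPM and Klf4 from 4.42 to 358 CPM, and Csf1r-positive cells made up 18.0% of decile 1 and 67.6% of decile 10. Among the 14 late genes, Ccl9 was the exception, at 187 CPM in decile 1 and 110 CPM in decile 10. Median depth was between 18980 and 23065 UMIs in all 10 deciles. All 10 members had their highest level in decile 10, and all 10 were at least 2-fold higher there than in decile 1 with the whole interval above 2, as were 4.38% of the 8592 genes with 50 or more UMIs in both deciles together. The order is a ranking of cells and not of time, and because it was built from genes of monocytic cells, the rise itself was partly set by the choice of the order.

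The members reached their level in different ways. The onset decile, the lowest in which a gene stood at 50% or more of its highest decile, was 3 for Ly86, 5 for F13a1, 6 for Ly6c2, 7 for Ctss, 8 for Ccr2 and Trem2, 9 for Lyz2, Lgals3 and Tgfbi, and 10 for Fn1. No onset is given for Irf8 and Csf1r, since the cells were selected on them. Neighbours in this order were not always apart. The interval of Ly6c2 held 50% already in decile 5 and that of Trem2 in deciles 7 and 8, as did those of Ctss in decile 7 and Lyz2 in decile 9. By their intervals Ly6c2 could thus share the onset of F13a1, Ctss that of Ccr2, Trem2 that of Ctss, Ccr2 or the genes at decile 9, and Lyz2 that of Fn1, so these were not separated beyond counting error. By decile 5, 2 of the 10 members had reached 50% (Ly86 and F13a1), against 35.1% of the 376 genes that rose at least 2-fold. The median onset was decile 8 for the members and decile 7 for those 376 genes.

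**Figure D1:**
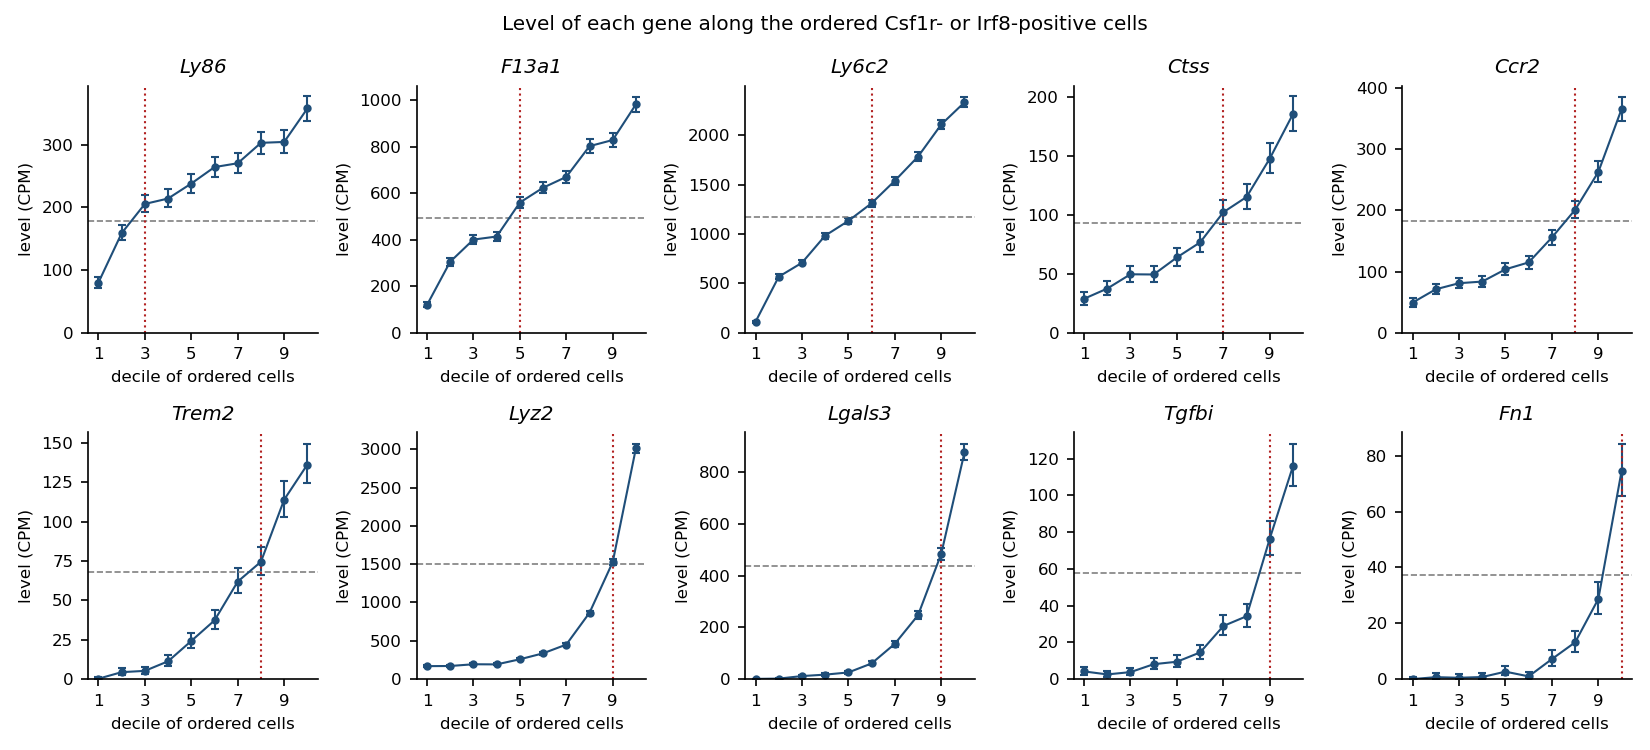
Level in CPM (vertical axis, from 0, scaled for each gene) in the 10 deciles of ordered cells (horizontal axis), with exact 95% Poisson intervals as bars. The dashed line marks 50% of the highest decile and the dotted line the onset decile, which runs from 3 for Ly86 to 10 for Fn1.

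The clotting gene F13a1 had an earlier onset than the matrix genes Fn1 and Tgfbi. F13a1 encodes the A subunit of clotting factor XIII, the transglutaminase that cross-links fibrin and also matrix proteins. Its level was 119, 305, 401, 414, 560.2, 624, 671, 803, 829.5 and 983 CPM in deciles 1 to 10. It had thus more than doubled by decile 2, 2.57-fold (interval 2.32 to 2.86), and rose 8.29-fold (interval 7.53 to 9.14) over the whole order. Fn1 encodes fibronectin, a matrix protein that factor XIII can cross-link. It had 0 UMIs in decile 1, where 3 UMIs would have given 0.737 CPM, and its level was 0, 0.693, 0.474, 0.737, 2.66, 0.968, 7.16, 13.2, 28.7 and 74.5 CPM in deciles 1 to 10. Through decile 6 it rested on 11 or fewer UMIs a decile, so the rise lay in the last 4 deciles, and decile 10 was at least 101-fold higher than that limit of decile 1. Tgfbi encodes a secreted matrix protein induced by transforming growth factor beta. Its level was 4.18, 2.54, 3.79, 8.11, 9.44, 14.5, 28.9, 34.2, 76.5 and 116 CPM in deciles 1 to 10, with no rise through decile 3 and a 1.52-fold (interval 1.30 to 1.78) step from decile 9 to 10.

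In single cells Fn1 was mostly seen with F13a1, which most ordered cells had. Of the 189 ordered cells with an Fn1 UMI, 187 (98.9%) also had an F13a1 UMI, as did 91.3% of all ordered cells, while 11.2% of the 1665 F13a1 cells and 10.4% of all ordered cells had an Fn1 UMI. In decile 10, 97.3% of cells had an F13a1 UMI and 43.4% an Fn1 UMI, and at an equal depth of 5000 UMIs a cell the shares were 93.3% (88.6 to 96.5) and 23.9% (17.9 to 30.8). F13a1 was also counted far more often than Fn1, and the part of that in the overlap was not tested.

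Among the genes of surface proteins and their partners, Ly86 came up at the lowest decile. Ly86 encodes MD-1, the secreted partner of the Toll-like receptor relative CD180. Its level was 79.8, 159, 205, 214, 238, 264, 270.4, 303, 304 and 358 CPM in deciles 1 to 10, of which decile 3 was already 57.4% of decile 10 (interval 52.6 to 62.6). Ly6c2 encodes the Ly6C antigen by which classical monocytes are sorted. Its level was 109, 566, 707, 983, 1133, 1311, 1539, 1784, 2109.7 and 2334 CPM in deciles 1 to 10, and its step from decile 1 to 2, 5.22-fold (interval 4.71 to 5.79), was the largest of the 10 members among those with over 3 UMIs in decile 1.

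Ccr2 and Trem2 followed later. Ccr2 encodes the receptor for the chemokine CCL2 that lets monocytes leave the marrow. Its level was 49.1, 70.9, 80.9, 83.5, 104, 115, 156, 201, 263 and 366 CPM in deciles 1 to 10, rising slowly to decile 6 and more steeply after it. Trem2 encodes a lipid-binding receptor of macrophages and microglia that signals through TYROBP. Its level was 0.246, 4.39, 5.22, 11.3, 24.2, 37.3, 61.9, 74.5, 114 and 136 CPM in deciles 1 to 10. Only 1 UMI lay in decile 1, so the ratio of decile 10 to decile 1, 555, had an interval from 99.1 to 21953. All 714 ordered cells with a Trem2 UMI also had a Ly6c2 UMI, but so did 90.5% of all ordered cells, and 43.2% of the Ly6c2 cells had a Trem2 UMI against 39.1% of all ordered cells.

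The lysosomal and effector genes rose late, but from different floors. Lyz2 encodes the lysozyme of myeloid cells. Its level was 169, 171, 194, 192, 258, 336, 450.2, 865, 1527 and 3014 CPM in deciles 1 to 10, flat through decile 4 and then steep, with 1.97-fold (interval 1.91 to 2.04) between deciles 9 and 10 alone. In decile 1, 90.2% of cells already had a UMI of it. Lgals3 encodes galectin-3, a sugar-binding protein of macrophages. Its level was 0.737, 1.85, 11.6, 17.2, 25.7, 60.5, 136, 247, 484 and 876 CPM in deciles 1 to 10, so it began near 0, with 3 UMIs in decile 1, where Lyz2 did not. The ratio of decile 10 to decile 1 was 1189 with an interval from 407 to 5769.6. Ctss encodes cathepsin S, the lysosomal protease that trims the invariant chain of class II molecules. Its level was 28.7, 37.4, 49.6, 49.4, 63.9, 76.7, 102, 115, 148 and 186 CPM in deciles 1 to 10, which is a gradual rise of 6.47-fold (interval 5.30 to 7.95).

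Counted cell by cell, the 10 genes added up along the order. At an equal depth of 5000 UMIs, a decile 1 cell had a UMI of 1.58 of the 10 genes on average and a decile 10 cell of 7.17. In decile 1, 22.0% of cells had none of the 10 and no cell had 8 or more, while in decile 10 41.7% of cells had 8 or more and 3 of 180 cells had all 10. The mean rose at every step between deciles.

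**Figure D2:**
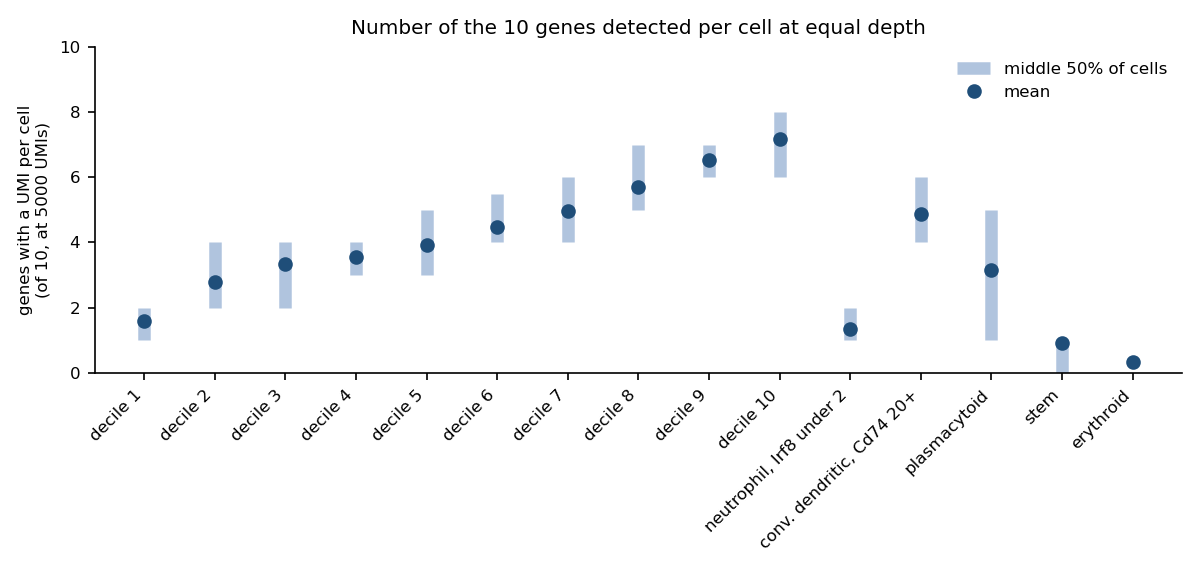
Number of the 10 genes with a UMI per cell after thinning each cell to 5000 UMIs (vertical axis) in the 10 deciles and in 5 gated groups (horizontal axis). Points are means and bars span the middle 50% of cells. The mean climbs from 1.58 in decile 1 to 7.17 in decile 10 and is 1.34 in the neutrophil-gated cells with under 2 Irf8 UMIs.

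Csf1r itself marked higher levels. Among Irf8-positive ordered cells, member levels in the 774 with 2 or more Csf1r UMIs stood above those in the 529 with none. The ratios ran from 1.48-fold for Ly6c2 up to 4.77-fold (interval 3.48 to 6.69) for Fn1. The share of all genes higher in this split was not computed. Csf1r-positive cells lay later in the order, and compared within deciles the ratios were smaller. F13a1 stayed higher with Csf1r in 10 of 10 deciles (ratio 1.46 after matching on decile), and Trem2, Tgfbi, Ccr2 and Ly86 in 9 of 10 (1.38, 1.35, 1.22 and 1.16). Ctss was higher in 8 of 10 (1.08) and Lyz2 in 7 of 10 (1.28). Fn1 was higher in 7 of 10 (1.74), with few UMIs in most. Lgals3 and Ly6c2, at matched ratios of 0.999 and 1.01 and higher in 5 and 3 of 10 deciles, did not differ with Csf1r once the decile was matched by more than these ratios.

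Neutrophil-gated cells had far less of the list, with 1 exception. In them 9 of 10 members were at least 2-fold below the ordered cells with the whole interval below 0.5, against 4.88% of the 11091 genes tested. The median ratio was 0.0876 over the members and 0.859 over all genes. F13a1 was at 64.6 CPM (95% interval 59.7 to 69.8) in the neutrophil gate and 557 CPM (95% interval 549.6 to 564) in the ordered cells. Lyz2, which mature neutrophils also hold, was at 119 CPM (95% interval 113 to 126) against 665 CPM (95% interval 657 to 673). Ly6c2 was the member that did not meet the rule, at 803 CPM (95% interval 785 to 821) against 1219 CPM (95% interval 1208 to 1229.6), a ratio of 0.659 (0.643 to 0.674).

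The remaining 7 members were low in the gate. The neutrophil ratios were 0.0803 (0.0620 to 0.102) for Ctss, 0.0873 (0.0737 to 0.103) for Lgals3 and 0.0767 (0.0629 to 0.0928) for Ccr2. They were 0.0879 (0.0762 to 0.101) for Ly86, 0.0869 (0.0613 to 0.120) for Trem2, 0.117 (0.0795 to 0.166) for Tgfbi and 0.0779 (0.0354 to 0.149) for Fn1. These UMIs were unevenly spread. The 62 neutrophil-gated cells that also had 2 or more Irf8 UMIs held 16.5% of the gate's UMIs of all genes, but 92.5% of its Lgals3, 90.9% of its Ctss, 89.5% of its Trem2, 86.4% of its Ly86, 75% of its Tgfbi, 67.0% of its Ccr2 and all 9 of its Fn1 UMIs. They held 58.1% of its F13a1, 50.2% of its Lyz2 and 20.3% of its Ly6c2 UMIs. This split, and those of the dendritic gates by Cd74 and Siglech given further on, were chosen after values had been seen.

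As a group, the 62 Irf8-positive cells had members and neutrophil genes, but some members sat in few of the cells. Lgals3 had a UMI in 21 of the 62, with 66.9% of its UMIs in the top 5 cells, and Trem2 in 16, with 55.9%. Ly86 was more widely spread, with a UMI in 43 and 24.2% of its UMIs in the top 5. Cebpe was at 145 CPM in the 62 cells and 256 CPM in the other 387. S100a8, a granulocyte calcium-binding protein gene, was at 476 and 1807 CPM. Doublet calls took 6.45% of the 62 cells (interval 1.79 to 15.7) and 1.10% of the ordered cells, and the part of doublets in these values was not tested. In the 62 cells Lyz2 stood at 363 CPM, F13a1 at 227, Ly86 at 109 and Lgals3 at 82.9 CPM. Their ratios to the ordered cells were 0.546, 0.408, 0.460 and 0.490, and over the 10 members the ratios ran from 0.312 for Ccr2 to 0.812 for Ly6c2.

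In the 387 neutrophil-gated cells with under 2 Irf8 UMIs, Ly6c2 stayed closest to the ordered cells. It stood at 766 CPM (95% interval 747 to 785) with a UMI in 98.4% of cells. Lyz2 was at 71.3 CPM (95% interval 65.7 to 77.3) and F13a1 at 32.4 CPM (95% interval 28.6 to 36.5). Each of the other 7 members was at 4.34 CPM or lower: Ccr2 4.34, Ly86 3.37, Lgals3 1.32, Tgfbi 0.963, Ctss 0.723, Trem2 0.482 CPM, and Fn1 with 0 UMIs, where 3 would have given 0.361 CPM. Here 9 of 10 members met the 2-fold rule, against 5.90% of 11056 genes. Ly6c2 did not follow the others within these cells either. Over equal groups of 129 cells ranked by S100a8 and S100a9, it went from 425 through 827 to 1119.7 CPM, 2.64-fold (interval 2.47 to 2.82), while Ly86 went from 7.59 to 0.412 CPM and Lyz2 was at 74.6 and 72.9 CPM in the lowest and highest group.

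**Figure D3:**
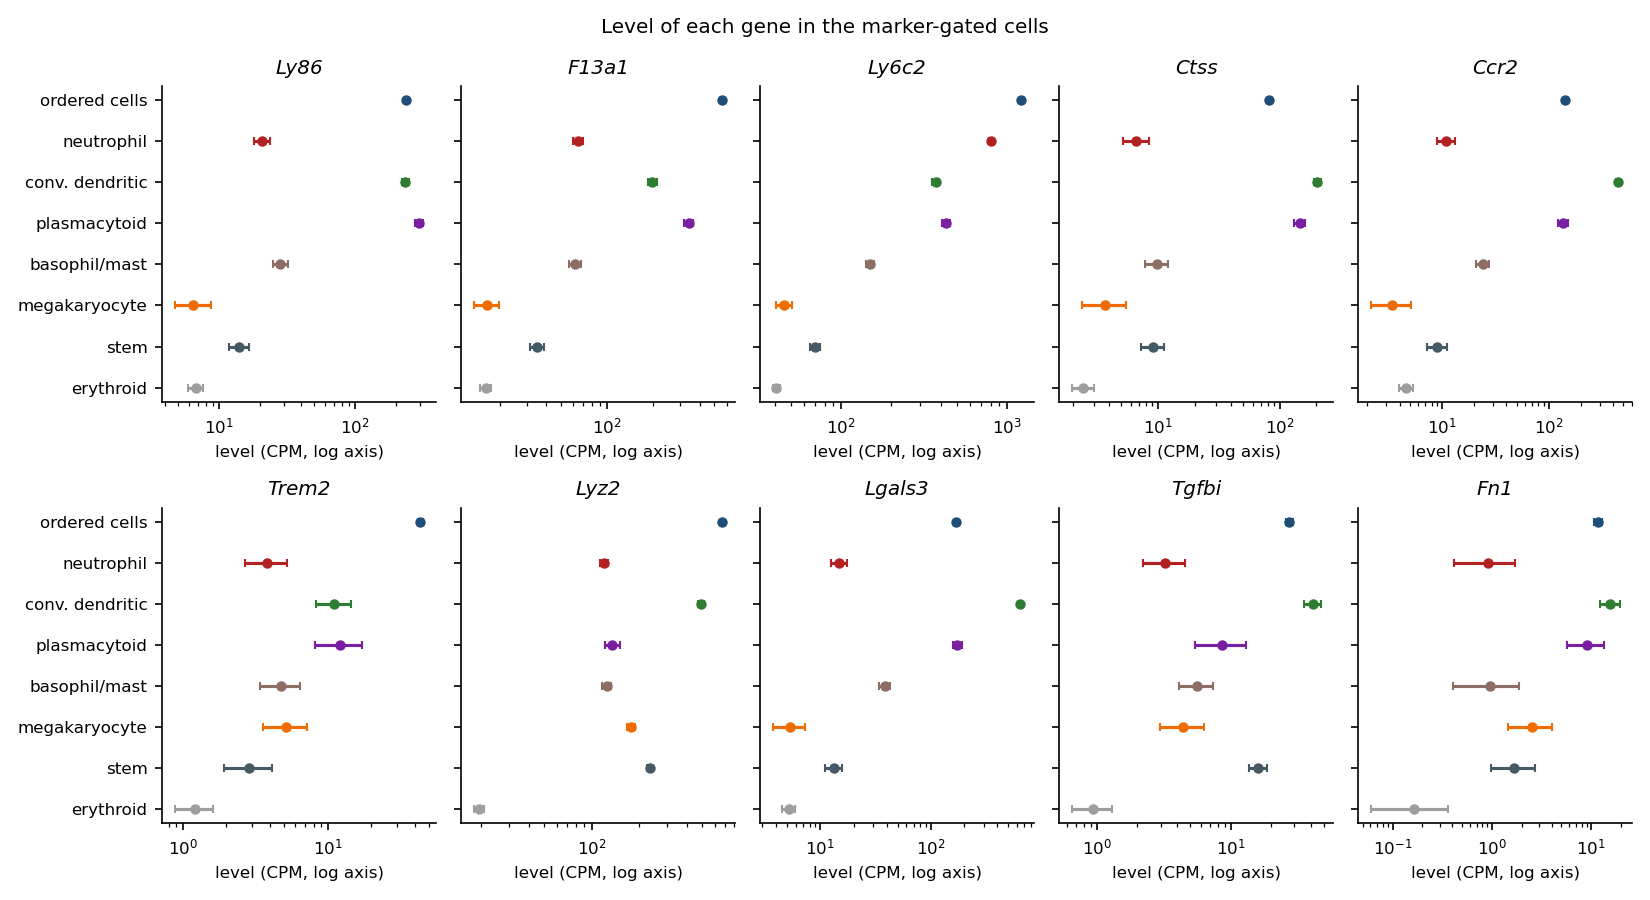
Level of each gene in CPM (horizontal log axis, scaled for each gene) in the ordered cells and 7 lineage gates (vertical axis), with exact 95% Poisson intervals. Ly6c2 at 803 CPM is the member nearest the ordered cells in the neutrophil gate, and Ctss, Ccr2 and Lgals3 lie furthest above the ordered cells in the conventional dendritic gate.

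Erythroid-gated cells, which should lack these genes, showed how many UMIs turn up outside the cells that express them. All 10 members were at least 2-fold lower there than in the ordered cells (18.0% of 11717 genes), and 9 of the 10 ratios lay between 0.0274 for Trem2 and 0.0338 for Tgfbi. Fn1 lay below them at 0.0141 (0.00517 to 0.0310). Irf8 (0.0307) and Csf1r (0.0333) fell in the same range. For all members but Fn1 (3 of 6 UMIs), most of these UMIs sat in the 177 erythroid-gated cells with an Irf8 UMI, of which 23.2% (interval 17.2 to 30.1) were doublet calls, against 1.63% (0.932 to 2.63) of the 984 cells without one. F13a1 was at 96.0 CPM in the former and 2.47 in the latter, and Lyz2 at 102 and 5.19 CPM. The part of doublets in these levels was not tested.

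The background was therefore read both from the whole erythroid gate and from its 984 cells without Irf8, the latter chosen after values were seen. In CPM the whole gate gave 41.0 for Ly6c2, 19.3 for Lyz2, 16.1 for F13a1, 6.74 for Ly86, 5.18 for Lgals3 and 4.63 for Ccr2, and the cells without Irf8 gave 11.4, 5.19, 2.47, 0.770, 1.67 and 0.962. Ctss, Trem2, Tgfbi and Fn1 were at 2.44, 1.21, 0.931 and 0.164 CPM in the whole gate and 0.545, 0.0962, 0.289 and 0.0962 without Irf8. At 5000 UMIs a cell, 6.72% of erythroid-gated cells had a Lyz2 UMI and 5.68% an F13a1 UMI (median depth before thinning 32534 UMIs, against 21066 in the Irf8-low neutrophil-gated cells).

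Ly6c2, Lyz2 and F13a1 were above either background in neutrophil-gated cells. Those with under 2 Irf8 UMIs had 18.7-fold (interval 17.7 to 19.8) as much Ly6c2, 3.70-fold (interval 3.31 to 4.14) as much Lyz2 and 2.01-fold (interval 1.74 to 2.33) as much F13a1 as the whole erythroid gate. With cells of 0 Irf8 UMIs on both sides (350 neutrophil-gated and 984 erythroid-gated), the ratios were 68.7 (61.7 to 76.7), 13.5 (11.3 to 16.2) and 12.7 (9.76 to 16.6).

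For the other members the reading depended on the background. Against the whole erythroid gate, Ctss, Lgals3 and Ly86 were lower in the Irf8-low neutrophil-gated cells, at 0.296 (0.106 to 0.671), 0.256 (0.126 to 0.468) and 0.5 (0.326 to 0.741), and the intervals of Ccr2, Trem2, Tgfbi and Fn1 held 1. With 0 Irf8 UMIs on both sides, Ccr2 was higher in the neutrophil-gated cells, at 3.07 (1.69 to 5.51) from 22 UMIs, and Tgfbi at 3.26 (1.03 to 9.83) from 7 UMIs. Ly86 turned to 2.09 (0.955 to 4.36), and its interval held 1, as did those of Ctss at 1.23 (0.355 to 3.48), Lgals3 at 0.725 (0.314 to 1.48), Trem2 and Fn1. Low Ccr2, Ly86 and Tgfbi levels in these cells were thus not settled as background.

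Conventional dendritic-gated cells divided the list. Of 10 members, 3 were at least 2-fold lower than in the ordered cells, Ly6c2 at 374 CPM (95% interval 357 to 392), F13a1 at 197 CPM (95% interval 185 to 209.6) and Trem2 at 11.1 CPM (95% interval 8.38 to 14.5), against 0.559% of 11088 genes. In contrast, Lgals3 was at 638 CPM (95% interval 616 to 661), Ccr2 at 442 CPM (95% interval 423 to 461) and Ctss at 204 CPM (95% interval 192 to 217). These were above the ordered cells by 3.77-fold (interval 3.61 to 3.93) for Lgals3, 3.09-fold (interval 2.94 to 3.25) for Ccr2 and 2.47-fold (interval 2.30 to 2.65) for Ctss. Tgfbi was also above the ordered cells, by 1.49-fold (interval 1.28 to 1.73). Ly86 stood level with the ordered cells, at a ratio of 0.993 (0.933 to 1.06), and Lyz2 somewhat below them, at 0.740 (0.709 to 0.771). The median ratio of the members was 1.16 and that of all genes 1.06. With 1 UMI per gate gene, no member was at least 2-fold lower in this gate.

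The gate was not uniform. Its 181 cells with 20 or more Cd74 UMIs per 10000 had 5197 CPM of the class II gene H2-Aa, and 71.3% of them had 2 or more UMIs of Batf3, a transcription factor of conventional dendritic cells. Its 111 cells with fewer than 5 Cd74 UMIs per 10000 had 36.3 CPM of H2-Aa and 8.11% of them met that Batf3 count. For Wdfy4, a gene of antigen cross-presentation, 77.9% of Cd74-high and 81.1% of Cd74-low cells had 2 or more UMIs. Xcr1 met that count in 16.6% of Cd74-high cells and in none of the Cd74-low cells, and Clec9a in 36.5% and 11.7%. Zbtb46 and Naaa also met it less often in the Cd74-low cells. Cd209a, at 6.63% and 9.91%, and Itgax, at 9.39% and 9.91%, did not. The Cd74-low cells thus met this count less often for some of these dendritic genes only. In the Cd74-high cells the contrast was sharper: 3 members were at least 2-fold lower (3.49% of 10959 genes) and 3 at least 2-fold higher (6.85%). Lgals3 reached 1093 CPM (95% interval 1049 to 1139.5), Ccr2 745 CPM (95% interval 708 to 783) and Ctss 356 CPM (95% interval 331 to 383). Ly6c2 was at 97.4 CPM (95% interval 84.4 to 112), F13a1 at 52.1 CPM (95% interval 42.7 to 63.0) and Trem2 at 1.46 CPM (95% interval 0.301 to 4.27), from 3 UMIs. In the Cd74-low cells these 6 were nearer to the ordered cells, with ratios of 0.507 for Ly6c2, 0.580 for F13a1, 0.468 for Trem2, 0.972 for Ctss, 1.31 for Ccr2 and 1.52 for Lgals3. Lyz2 and Ly86 were not nearer, at 0.727 (0.685 to 0.770) and 0.750 (0.680 to 0.825) in Cd74-low cells and 0.821 (0.773 to 0.872) and 1.29 (1.18 to 1.39) in Cd74-high cells.

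Fn1 had no settled direction in the dendritic gate. Over the whole gate its ratio to the ordered cells was 1.32 (1.02 to 1.69), but it was 0.789 (0.607 to 1.01) against Csf1r-positive cells alone, 0.742 (0.476 to 1.11) with 3 UMIs per gate gene and 0.814 (0.650 to 1.01) with cells of several gates kept in each. In Cd74-high cells it was below the ordered cells, at 0.461 (0.229 to 0.833) from 11 UMIs, and in Cd74-low cells above, at 2.01 (1.51 to 2.65) from 58 UMIs. Few cells carried these values, since the 11 UMIs lay in 4 cells and 60.3% of the 58 in 5 of 111 cells. Tgfbi went the other way, at 2.21 (1.82 to 2.66) in Cd74-high and 1.10 (0.858 to 1.39) in Cd74-low cells. The gate also held cells with genes of different dendritic subsets. In its 40 cells with a UMI of Cd209a, a gene of the second conventional subset, Fn1 was at 77.6 CPM (95% interval 55.9 to 105). This rested on 42 UMIs in 14 cells, with 66.7% of them in the top 5 cells. F13a1 was at 349 and Ly6c2 at 614 CPM there. Another 133 cells had no Cd209a UMI but had Xcr1 or Clec9a, genes of the cross-presenting subset. In these, Fn1, F13a1 and Ly6c2 were at 6.09 CPM (95% interval 2.92 to 11.2), 103 and 187 CPM. The Cd209a cells were thus 12.8-fold (interval 6.30 to 28.5), 3.38-fold (interval 2.73 to 4.18) and 3.28-fold (interval 2.80 to 3.85) higher. Ctss, Ccr2 and Ly86 had ratios of 0.893, 0.949 and 1.08 between these sets, with intervals that held 1.

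Set against the late end of the order, the Cd74-high dendritic cells had more of Ccr2, Ctss and Lgals3 and less of the other members. Ccr2 was 2.04-fold (interval 1.89 to 2.19) and Ctss 1.92-fold (interval 1.72 to 2.13) as high in Cd74-high cells as in decile 10, and Lgals3 1.25-fold (interval 1.18 to 1.32). Ly86 was close to decile 10, at 0.847 (0.768 to 0.933). Lyz2 was at 0.181 (0.170 to 0.193) of decile 10, Tgfbi at 0.525 (0.426 to 0.643), Fn1 at 0.0720 (0.0355 to 0.131), F13a1 at 0.0530 (0.0433 to 0.0643), Ly6c2 at 0.0417 (0.0361 to 0.0480) and Trem2 at 0.0107 (0.00221 to 0.0316). Decile 10 held some class II transcripts, with 120.3 CPM of Cd74 against 10448 in the Cd74-high cells, and its 11 conventional dendritic markers summed to 221 CPM against 6246 in the gate. Leaving out ordered cells with 5 or more Cd74 UMIs per 10000 left 1795 of 1824 cells and the same count of members at 50% by decile 5.

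**Figure D4:**
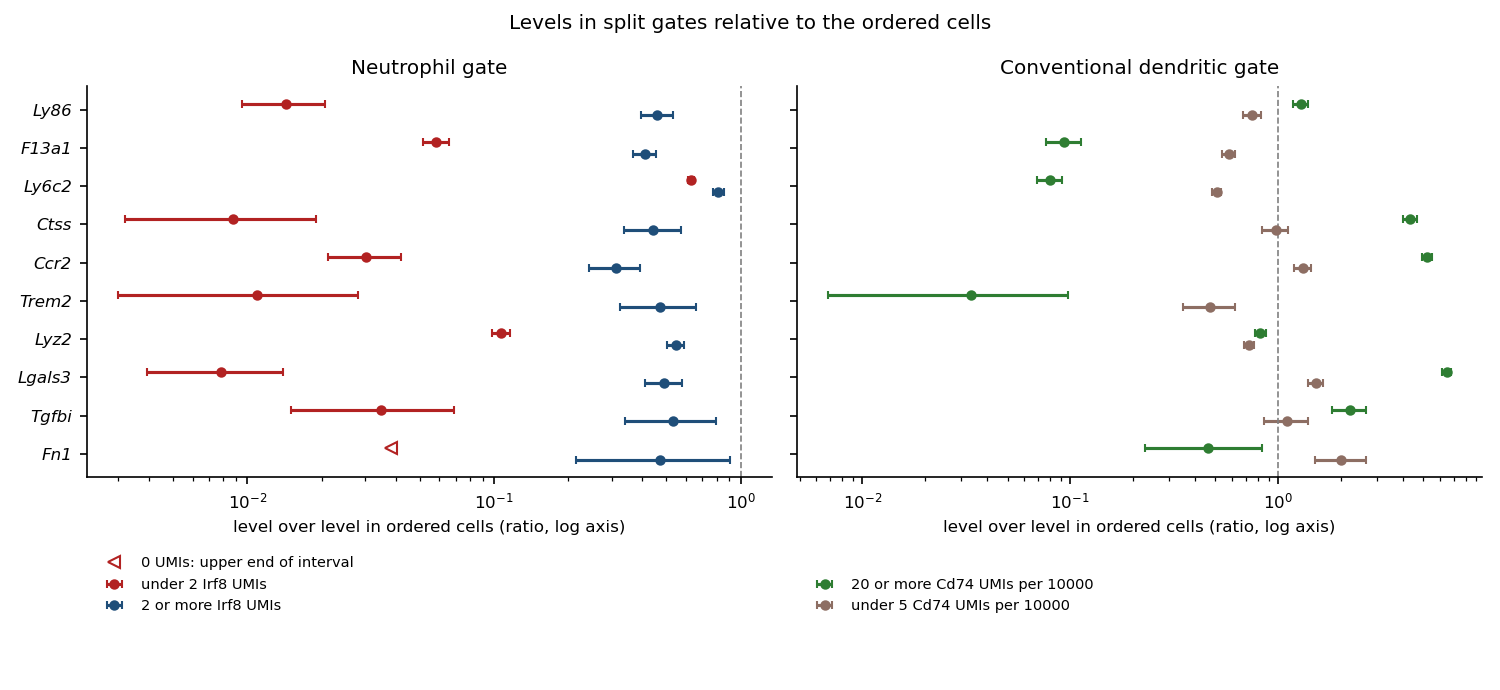
Ratio of the level in a part of a gate to the level in the ordered cells (horizontal log axis, dashed line at 1) for each gene, with exact 95% intervals. Left, the neutrophil gate by Irf8 UMIs; right, the conventional dendritic gate by Cd74 UMIs. Ly6c2 is the member near 1 in Irf8-low neutrophil-gated cells, and Trem2, Ly6c2 and F13a1 fall furthest in Cd74-high dendritic-gated cells.

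Plasmacytoid dendritic-gated cells kept another part of the list. There 4 of 10 members were at least 2-fold lower than in the ordered cells (0.912% of 10967 genes): Lyz2 at 135 CPM (95% interval 121 to 150.2), Ly6c2 at 431 CPM (95% interval 406 to 458), Trem2 at 12.1 CPM (95% interval 8.23 to 17.2) and Tgfbi at 8.60 CPM (95% interval 5.39 to 13). Ctss, at 147 CPM (95% interval 132 to 162), and Ly86, at 295 CPM (95% interval 275 to 317), were above the ordered cells, by 1.77-fold (interval 1.59 to 1.97) and 1.25-fold (interval 1.16 to 1.35). Lgals3, Ccr2 and Fn1 had ratios of 1.03 (0.929 to 1.13), 0.952 (0.852 to 1.06) and 0.774 (0.485 to 1.18), whose intervals hold 1. F13a1 was between these sets, at 339.9 CPM (95% interval 318 to 363) and a ratio of 0.610 (0.570 to 0.653). With 1 UMI per gate gene, no member was at least 2-fold lower in the plasmacytoid gate.

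Siglech parted these cells as well. In the 56 with a Siglech UMI, F13a1 was at 187 CPM, Lyz2 at 83.6, Lgals3 at 298 and Ctss at 199.9 CPM, and Trem2 had 1 UMI. In the 93 without, F13a1 was at 421, Lyz2 at 163, Lgals3 at 108, Ctss at 118 and Trem2 at 17.9 CPM. Ccr2 was at 137 and 136 CPM, with intervals that overlap. The median depth of the gate was 16241 UMIs, against 21334.5 in the ordered cells.

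Between the dendritic gates, some members were higher in conventional dendritic-gated cells, from Ctss at 1.39-fold (interval 1.24 to 1.57) and Fn1 at 1.71-fold (interval 1.06 to 2.86) through Ccr2, Lyz2 and Lgals3, at 3.25, 3.64 and 3.68, to Tgfbi at 4.78-fold (interval 3.07 to 7.79). F13a1 was lower there, at 0.579 (0.528 to 0.635), as were Ly86, at 0.792 (0.722 to 0.870), and Ly6c2, at 0.868 (0.805 to 0.936). Trem2 did not differ beyond counting error, at 0.919 (0.581 to 1.48).

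Lyz2 and Tgfbi also stood above background outside the myeloid gates. Lyz2 was at 233 CPM (95% interval 223 to 242) in stem-gated cells, with a UMI in 83.7% of them at a median of only 9100 UMIs, and at 177 CPM (95% interval 167 to 187) in megakaryocyte-gated cells, with a UMI in 86.7%. In erythroid-gated cells, at a median of 32534 UMIs, 19.4% of cells had one. Thinned to 5000 UMIs, the shares were 63.3% (60.1 to 66.4) in the stem gate, 57.4% (52.5 to 62.2) in the megakaryocyte gate and 6.72% (5.35 to 8.31) in the erythroid gate. Stem-gated cells thus had a higher Lyz2 level than decile 1 of the ordered cells, also when only the 831 with no Irf8 UMI were counted, 1.22-fold (interval 1.11 to 1.33).

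Most other members were low in stem-gated cells. Among cells with no Irf8 UMI, 3 of the 7 members with enough UMIs were at least 2-fold higher in the stem gate than in the erythroid gate, Lyz2 by 39.6-fold (interval 33.7 to 46.8), Tgfbi by 51.2-fold (interval 26.1 to 115) and Ctss by 8.54-fold (interval 4.73 to 16.1), while 28.2% of 11364 genes met the same rule, so the count of members is given without further reading. Tgfbi was at 14.8 CPM (95% interval 12.3 to 17.6) there, above its 4.18 CPM in decile 1, so that its level over these groups had a low point at the start of the order. Ctss was at 4.65 CPM. Ccr2 and F13a1 stood at 2.42 (1.30 to 4.40) and 1.70 (1.11 to 2.55) of the erythroid level, neither with its interval above 2. The levels of Ly86, Ly6c2 and Lgals3 in the same cells were 0.698, 12.1 and 2.21 CPM, with ratios to the erythroid cells whose intervals held 1. Fn1 and Trem2 rested on 12 and 5 UMIs there and on 3 UMIs each in the erythroid cells. In megakaryocyte-gated cells with no Irf8 UMI, Lyz2 was 33.1-fold (interval 28.0 to 39.3), Tgfbi 15.5-fold (interval 7.06 to 37.4) and Trem2 48.1-fold (interval 14.9 to 247) above the erythroid level, Tgfbi against 9 UMIs and Trem2 against 3.

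**Figure D5:**
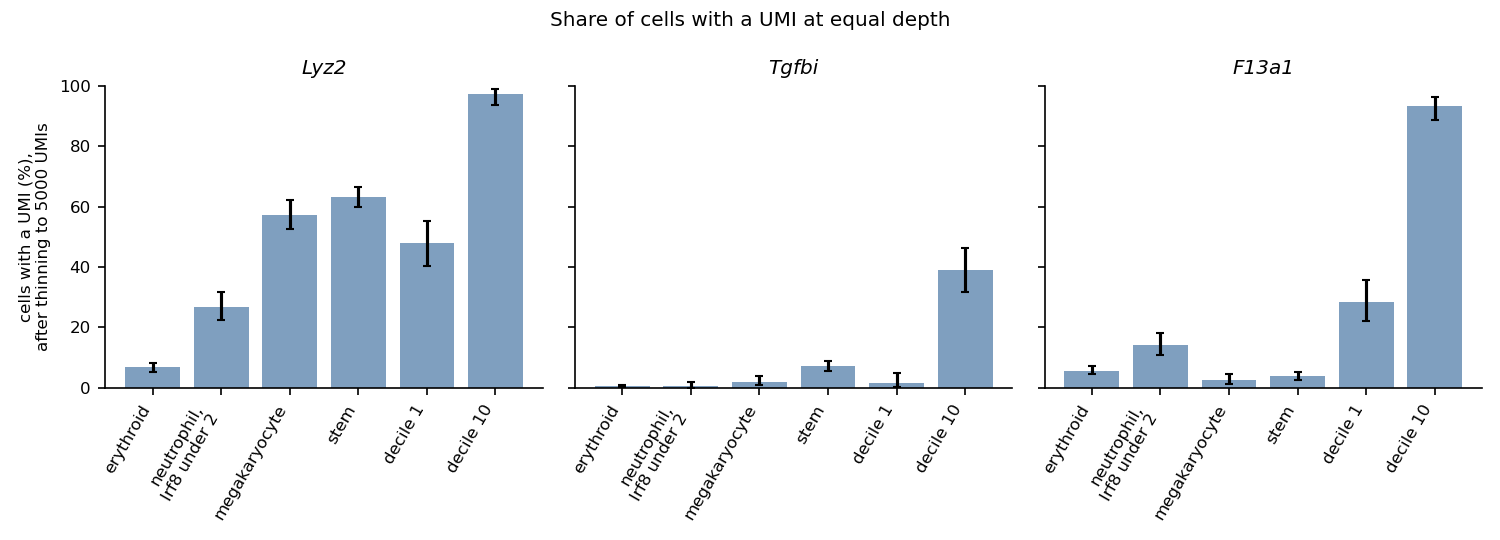
Share of cells with a UMI after thinning to 5000 UMIs (vertical axis, percent, from 0) for Lyz2, Tgfbi and F13a1 in 6 groups of cells (horizontal axis), with Clopper-Pearson 95% intervals. Lyz2 was found in 63.3% of stem-gated cells and 6.72% of erythroid-gated cells, whereas F13a1 was at 3.75% and 5.68%.

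Basophil or mast-gated cells lay between, with 124 CPM of Lyz2, 150.3 of Ly6c2, 61.7 of F13a1, 38.4 of Lgals3, 28.1 of Ly86 and 24.0 of Ccr2. Ctss, Tgfbi, Trem2 and Fn1 were at 9.86, 5.58, 4.75 and 0.95 CPM there. The ratios to the ordered cells ran from 0.0818 for Fn1 to 0.227 for Lgals3, and 14.0% of these cells were themselves Csf1r-positive or Irf8-positive. In the 23 lymphoid-gated cells Ly86 was at 116 CPM (95% interval 80.5 to 161) and Ctss at 69.3 CPM (95% interval 42.9 to 106), while Trem2 and Tgfbi had 0 UMIs, where 3 would have given 9.90 CPM. In the 11 eosinophil-gated cells no member had more than 15 UMIs.

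Partners of the members were taken from a list of 51 ligands, receptors, inhibitors and relatives. Of the 31 with enough UMIs, 11 were at least 2-fold higher in decile 10 than in decile 1 (4.38% of all genes), and of 41 with enough UMIs 10 were at least 2-fold lower in neutrophil-gated cells (4.88% of all genes). Of these, Tyrobp and Ctsc had helped to order the cells. For the matrix genes, the integrin subunit genes Itga4, Itgb1 and Itga5, whose products bind fibronectin, were at 143, 114 and 7.86 CPM in decile 1 and 78.8, 112 and 12.4 in decile 10, so that none rose 2-fold with Fn1. For clotting, F10, the gene of factor X, rose from 3.68 to 57.4 CPM (15.6-fold, interval 9.23 to 28.4), F5 was at 1.23 and 3.46 CPM and the transglutaminase gene Tgm2 at 1.72 and 0.289 CPM. F13b, the gene of the factor XIII carrier subunit, had 0 UMIs in all kept cells. Tgfb1, Tgfbr1 and Tgfbr2, the ligand and receptors upstream of Tgfbi, were at 235, 16.2 and 15.2 CPM in decile 1 and 261, 10.4 and 4.62 in decile 10.

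Among the partners of receptors, Cxcr4, which holds cells in the marrow, rose from 36.8 to 114 CPM (3.09-fold, interval 2.55 to 3.75), and Cx3cr1, the receptor of patrolling monocytes, from 14.0 to 62.0 CPM (4.43-fold, interval 3.30 to 6.04). Ccr1 was at 1.23 and 8.66 CPM. Cd180, the receptor that MD-1 binds, was at 13.3 and 30.3 CPM along the order and at 67.6 CPM in conventional dendritic-gated cells. Tlr2 was at 5.40 and 15.0 and Ly96, the gene of the related MD-2, at 5.65 and 18.2 CPM. Tyrobp, the adaptor of Trem2, rose from 322 to 1714 CPM (5.32-fold, interval 5.01 to 5.66). Apoe, a ligand of Trem2, was at 51.6 and 16.2 CPM, and Trem3 at 33.6 and 49.1 CPM with 259.9 CPM in neutrophil-gated cells.

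Among lysosomal partners and relatives, Cst3, the cathepsin inhibitor cystatin C, rose from 541 to 2351 CPM (4.34-fold, interval 4.14 to 4.55) and stood at 7613 CPM in conventional dendritic-gated cells. Cd74, the invariant chain that cathepsin S cuts, rose from 12.5 to 120.3 CPM (9.61-fold, interval 7.17 to 13.1). Ctsd, another cathepsin gene, was at 139 and 152 CPM. Lgals1, the gene of galectin-1, rose from 606 to 2407 CPM (3.97-fold, interval 3.8 to 4.16), while Lgals9 was at 130.4 and 38.1 and Lgals3bp at 34.6 and 7.79 CPM. Of the Ly6 genes, Ly6e was at 623 and 1102 CPM, Ly6d at 156 CPM in plasmacytoid-gated cells, where it is a gate marker, and Ly6a at 2.70 and 2.60 CPM.

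The pattern over the 10 deciles and 9 gates was compared with that of 4905 genes that reached 50 CPM in at least 1 of these 19 cell groups, by Pearson's r of log2(CPM + 10). This describes 19 groups of 1 library that share cells of 1 order, and no test was made. Genes closest to Ly86 were Ifi209 (r = 0.980), Irf8 (0.979) and Pkib (0.976). Closest to F13a1 were Zeb2os (0.969), Sub1 (0.949) and Ms4a6c (0.945), and closest to Ly6c2 were Clec5a (0.973), Atp6v0b (0.963) and Slpi (0.961). For Ctss they were Pip4p1 (0.974), Mpeg1 (0.969) and Gm42031 (0.961), and for Ccr2 Rassf4 (0.966), Cfp (0.965) and Ctsh (0.949).

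For the genes of late onset, Lyz2 was closest to Ctsc (0.955), Rassf1 (0.921) and Fkbp1b (0.906), and Trem2 to Nrg1 (0.969), Fkbp1b (0.949) and Itga1 (0.934). Lgals3 was closest to Klf4 (0.961), Ahnak (0.955) and S100a4 (0.952). Tgfbi was closest to Slfn2 (0.960), Vsir (0.888) and Ctsc (0.883), and Fn1 to S100a4 (0.878), Slfn2 (0.867) and Samhd1 (0.854). Irf8 selected the ordered cells, and Ctsc, Ms4a6c, Klf4 and S100a4 helped to order them, so their likeness is partly built in. Within the list, Ccr2 and Ctss were closest to each other (0.945), as were F13a1 and Ly6c2 (0.937) and Lyz2 and Tgfbi (0.925).

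On the genome (GRCm38, GENCODE M21) the members lie on 8 chromosomes, and 3 of them on chromosome 13. F13a1 (ENSMUSG00000039109, chr13:36867178-37050244, minus strand) and Ly86 (ENSMUSG00000021423, chr13:37345208-37419036, plus strand), which had the lowest onset deciles, are divergent neighbours. Their starts lie 294964 bp apart with 5 annotated genes between, none of them protein-coding, and the 4 of these in the matrix had 0 UMIs. Tgfbi (ENSMUSG00000035493) is at chr13:56609523-56639562, plus strand. The other members are Lyz2 (ENSMUSG00000069516, chr10:117277331-117282321, minus), Ctss (ENSMUSG00000038642, chr3:95526786-95556403, plus), Lgals3 (ENSMUSG00000050335, chr14:47367751-47386160, plus) and Ccr2 (ENSMUSG00000049103, chr9:124101950-124113557, plus).

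Ly6c2 (ENSMUSG00000022584) is at chr15:75108158-75111970, minus strand, Trem2 (ENSMUSG00000023992) at chr17:48346401-48354147, plus strand, and Fn1 (ENSMUSG00000026193) at chr1:71585520-71653200, minus strand. All 10 are annotated as protein-coding. Antisense genes overlap F13a1 (Gm49144 and Gm30489) and Fn1 (Apol7d), and the pseudogene Hmgb1-ps5 lies within Ctss on the same strand. Lyz2 and Ly6c2 have near copies, Lyz1 and Ly6c1. In the last 500 bases of the transcripts, 16.9% of the 50-base windows of Lyz2 and 20.0% of those of Ly6c2 are shared with the copy, so reads from there could not have been told apart. The kept cells had 40008 Lyz2 and 39 Lyz1 UMIs, and 70507 Ly6c2 and 45 Ly6c1 UMIs.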

How the data were processed

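The authors made the deposited UMI counts, whole numbers per gene and barcode and not normalized, with Cell Ranger 6.0.2 from a 10x Chromium library on mm10, and deposited the barcodes called as cells. The labels also describe a bulk RNA kit, which the values go against. Columns of other samples in the table: 0. From the counts, the study's filter (between 1000 and 50000 UMIs, between 1000 and 6500 genes, mitochondrial share under 7%) kept 7645 barcodes, with 1592 to 49991 UMIs. Scrublet, run through scanpy 1.11.5, marked doublets (expected 6%, 268 calls, 3.51% of kept cells), kept in the main values and removed in an alternative.

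Cells were ordered by the mean z score of log(1 + UMIs per 10000) of 14 late genes minus that of 7 early genes. A gene was counted as lower or higher than 2-fold only with its whole interval past the limit, and shares of all genes use those with 50 or more UMIs in both groups together. Intervals used scipy 1.17.1, figures matplotlib 3.10.9. Shares of cells were thinned to 5000 UMIs, without the 99 shallower cells. Named genes are the members, at most 3 partners of each by largest UMI sum, and the 3 genes closest in pattern. Irf8, Csf1r, gate and order genes are named as cell selectors, while S100a8 and the splits by Irf8, Cd74 and Siglech, and F13b, were chosen after values were seen. The members, lists and gates were chosen with earlier results of these data known. The ratio and ordering steps were tested on simulated data. Alternatives changed the positive and gate limits, cell filter, doublets, scaling, thinning, order and onset rule.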

Additional observations from a re-analysis of the deposited data

How the results depend on the processing

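With 1 library no replicate could be left out, and no paired analysis was possible because only 1 group was measured. Of 19 alternatives, the count of members at 50% by decile 5, which is 2, became 4 in Csf1r-positive cells alone, 1 with 5 groups of cells, 5 at 25% of the highest level and 0 by the decile that holds the middle of the summed CPM. With 1 UMI per gate gene, which left 799 ordered cells, the counts of members at least 2-fold lower became 0 (from 3) in conventional dendritic-gated and 0 (from 4) in plasmacytoid dendritic-gated cells. The cause was not tested. Only the larger changes of these counts are named. With 1 or more UMIs of Csf1r or Irf8, for example, the plasmacytoid count was 3 (from 4). The count in neutrophil-gated cells was 9 in the 13 alternatives that changed cells, gates or scale. Over 17 settings with a 50% rule and a new order, cell set or scale, the onset decile ranged from 2 to 4 for Ly86, 2 to 5 for F13a1, 5 to 8 for Ctss, 7 to 9 for Ccr2, 6 to 9 for Trem2, 8 to 10 for Lyz2, 8 to 9 for Lgals3 and Tgfbi and 9 to 10 for Fn1. Ly6c2 ranged from 1 to 7, at decile 1 when cells were ordered by the first principal component of other genes, whose r with the order score over cells was 0.445. A further 3 alternatives were chosen after seeing the data. Under 1 of them, conventional dendritic-gated cells with 20 or more Cd74 UMIs per 10000, Fn1 reversed to a ratio of 0.461 from 1.32. It also fell below 1, with intervals that held 1, against Csf1r-positive cells alone (0.789), with 3 UMIs per gate gene (0.742) and with cells of several gates kept in each (0.814). Sparse genes limit the reading: Fn1 had 461 and Tgfbi 1093 UMIs in all ordered cells.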

Other observations

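The 1172 barcodes that the study's filter removed also held UMIs of all 10 members. In the 213 removed for over 50000 UMIs or over 6500 genes, Ly6c2 was at 128.8 CPM, Lyz2 at 77.7 and F13a1 at 66.0, and in the 574 with too few genes, at a median of 1321 UMIs, these were at 67.5, 24.9 and 41.5 CPM. Trem2 had 0 UMIs in the latter, and Fn1 5 UMIs.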
